A study of Mus musculus with 6 samples.

Results

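The D-type cyclins and the CDK inhibitors are the genes that meter entry into the cell division cycle. They were described here in bone marrow macrophages of knockin (KI) mice set against those of wild-type (WT) mice. The members are 10 genes, taken by function: the cyclins Ccnd1, Ccnd2 and Ccnd3, the Cip/Kip inhibitors Cdkn1a, Cdkn1b and Cdkn1c, and the INK4 inhibitors Cdkn2a, Cdkn2b, Cdkn2c and Cdkn2d. All array features (probe sets) that the platform annotation paired with 1 of these symbols alone were taken, which gave 22 of the 45101 probe sets on the array. Where a gene had several, they are lettered from A, the brightest, downwards. Their NCBI gene identifiers run from 12443 (Ccnd1) to 12445 (Ccnd3) and from 12575 (Cdkn1a) to 12581 (Cdkn2d) in the order given.

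Both groups came from C57BL/6 mice per the labels, and both sets of macrophages were cultured for 24 hours with RANKL (100 ng/ml) in the presence of M-CSF (44 ng/ml). M-CSF sustains the survival and growth of macrophage precursors. RANKL acts through its receptor RANK to drive them towards the osteoclast, a cell that resorbs bone. The KI mice are labelled only as a knockin mutant, and the title of the series names the IVVY motif in the cytoplasmic part of RANK. The comparison asks how expression in these cells depends on it. The labels give no altered residues, no age and no statement that the 3 samples of a genotype came from separate mice, so p-values measure the spread between these samples. There were 3 WT arrays and 3 KI arrays, with 1 linear intensity for each probe set.

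D-type cyclins are made when a cell senses a growth factor, and they bind the kinases CDK4 and CDK6. The active kinase phosphorylates the retinoblastoma protein, which then releases E2F transcription factors that switch on the genes of DNA replication. INK4 proteins bind CDK4 and CDK6 themselves and keep cyclin D away, while Cip/Kip proteins bind cyclin and kinase together and act most strongly on CDK2. In the osteoclast lineage, precursors divide under M-CSF and leave the cycle as they differentiate.

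Array medians lay between 83.0 and 84.8. Each of 8 macrophage markers was higher in KI, and their summed intensity was 90761 to 111245 in WT and 135581 to 141077 in KI. Of 8 osteoclast markers 6 were lower in KI, Itgb3 did not pass the test and Calcr lay near the floor, with a summed intensity of 63884 to 73095 in WT and 29318 to 32591 in KI. Neutrophil and myeloid progenitor markers summed to 15960 to 19995 in WT and 22290 to 43860 in KI, with 6 of 9 higher in KI. The others, Elane, Mpo and Prtn3, did not pass. Stromal cell and osteoblast markers passed in neither direction, but their sum ranged widely, from 2167 to 7111 in WT and from 2282 to 8718 in KI. The lists for erythroid, B, T and NK, and mast cells and basophils each summed to at most 391 on any array. In such bulk cultures, fewer cells of a type and less RNA per cell cannot be told apart. The part of these marker shifts in the members' differences was not tested.

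Of the 22 member probe sets, 15 had a mean above the median of all probe sets and were tested, and they covered 9 of the 10 genes. Of these 15, 3 were higher in KI (Ccnd3, Cdkn1c and Cdkn2c), 2 were lower (Cdkn2b and Ccnd1) and 10 did not pass an adjusted p of 0.05 in the limma fit over all 22518 tested probe sets. Over all tested probe sets 44.9% passed in either direction, 19.3% higher and 25.6% lower, so that the members' share, 33.3%, was not above the background. The groups did not overlap for 5 of the 15 tested member probe sets, against 60.9% of all tested ones. The median log2 difference (KI minus WT) was 0.15 over the tested member probe sets and -0.04 over all tested probe sets. Over all tested probe sets this median was -0.25 when arrays were scaled to their hybridisation spike-ins. It was -0.57 when an earlier design of the spike-in probe sets served instead, here called older spike-in scaling.

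**Figure D1:**
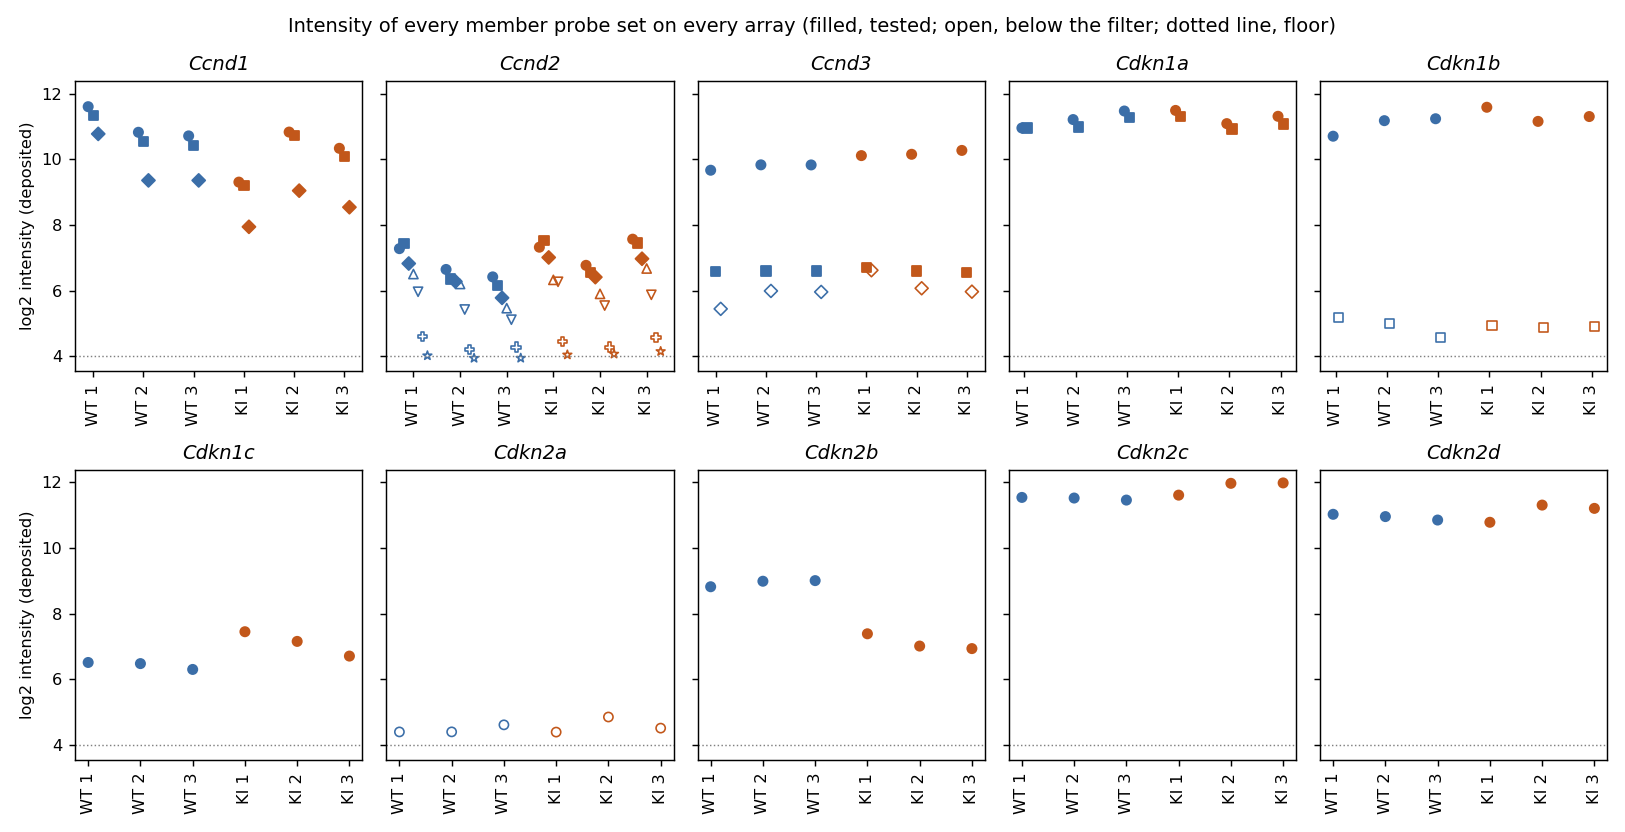
The log2 of the deposited intensity is plotted for each of the 22 member probe sets (1 symbol shape for each probe set of a gene) on the 3 WT (blue) and 3 KI (orange) arrays, with filled symbols for the 15 tested probe sets and open symbols for those below the filter. Cdkn2b separates the groups widely, Ccnd1 is high on WT 1 and low on KI 1, and Cdkn2a lies near the floor, drawn as a dotted line at an intensity of 16.

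Cdkn2b, which encodes the INK4 inhibitor p15, had the clearest difference of all members. Its single probe set had intensities of 452, 508 and 515 on the WT arrays and 168, 129 and 123 on the KI arrays. Each KI array lay far below each WT array. The mean was 492 ± 34.3 (SD, n = 3) in WT and 140 ± 24.3 (SD, n = 3) in KI, a log2 difference of -1.83 (adjusted p = 0.00039 by limma, SE 0.14), or 3.55-fold lower in KI. Among the tested probe sets 90, or 0.4%, were called with a fall as large or larger. The call held under each of 20 alternative settings, with log2 differences from -2.36 to -1.59 and adjusted p of at most 0.012 by limma. Under older spike-in scaling its SE was 0.27, above the 0.14 as reported, although the adjusted p was smaller. That smaller p is not read as stronger evidence.

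Cdkn2a, the neighbour of Cdkn2b, encodes the INK4 inhibitor p16 and, in another reading frame, the p53 activator ARF. Its probe set had intensities of 21.1, 21.1 and 24.5 in WT and 21.0, 28.9 and 22.9 in KI. All values lay just above the floor of 16, and the probe set was not tested. Mtap, the next gene on the other side of Cdkn2a in the reference gene table (assembly GRCm38.p6), encodes an enzyme of the methionine salvage pathway. It had intensities of 4097, 2601 and 2707 in WT and of 1310, 1745 and 1435 in KI, and it fell by 1.05 on the log2 scale (adjusted p = 0.0062 by limma, SE 0.19). Dmrta1, which lies beyond Cdkn2b, stayed between 13.8 and 17.0 on all 6 arrays. Of these neighbours Mtap and Cdkn2b were measurable. Both were lower in KI, as were 27% of all genes tested by their brightest probe set. Mtap was highest on WT 1 and lowest on KI 1. Cdkn2b by contrast was lowest of the WT arrays on WT 1 and highest of the KI arrays on KI 1.

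The sequences before the start sites of Cdkn2b and Ccnd3 are printed below because the calls of these genes held when any single array was left out. They are the 250 bases upstream of each start listed in RefSeq (build GRCm38.p6), written 5′ to 3′ on the strand of the gene, with matches to the searched motifs in capitals.
Cdkn2b, chr4:89311033-89311282, minus strand: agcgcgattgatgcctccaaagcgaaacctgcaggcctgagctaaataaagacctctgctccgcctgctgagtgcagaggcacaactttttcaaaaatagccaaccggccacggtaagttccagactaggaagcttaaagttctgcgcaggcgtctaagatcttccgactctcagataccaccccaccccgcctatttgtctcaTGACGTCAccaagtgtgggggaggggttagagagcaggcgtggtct
Ccnd3 upstream start, chr17:47504801-47505050, plus strand: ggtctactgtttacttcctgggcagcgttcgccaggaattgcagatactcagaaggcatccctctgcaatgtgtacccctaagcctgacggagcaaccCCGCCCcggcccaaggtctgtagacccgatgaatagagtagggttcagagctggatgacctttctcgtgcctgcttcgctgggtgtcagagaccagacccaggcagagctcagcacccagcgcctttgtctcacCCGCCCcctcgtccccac
Ccnd3 downstream start, chr17:47593217-47593466, plus strand: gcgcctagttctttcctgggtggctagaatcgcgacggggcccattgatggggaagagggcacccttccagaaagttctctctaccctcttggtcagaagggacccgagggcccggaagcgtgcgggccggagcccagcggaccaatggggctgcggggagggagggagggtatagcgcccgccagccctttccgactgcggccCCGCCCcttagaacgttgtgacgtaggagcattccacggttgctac
The 7 motifs searched on both strands were the GC box GGGCGG, the cAMP response element TGACGTCA, the AP-1 site TGACTCA, the E-box CACGTG, the TATA box TATAAA and the E2F sites TTTGGCGC and TTTCCCGC, with overlapping matches counted for each motif. The table held 11 such windows for 7 of the 10 members, not for Ccnd1, Ccnd2 or Cdkn1c. The window of Cdkn2b was the one of these 11 with a cAMP response element, which 1.55% of 32851 windows over all genes held. GC boxes stood in 7 of the 11 windows, among them both of Ccnd3, and in 32.7% of all windows. A match describes these letters and is not evidence of binding.

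Cdkn2c and Cdkn2d encode the INK4 inhibitors p18 and p19. The Cdkn2c probe set had intensities of 2983, 2944 and 2820 in WT and 3130, 4015 and 4050 in KI. The groups did not overlap, but KI 1 lay close to WT. Cdkn2c rose by 0.35 on the log2 scale (adjusted p = 0.039 by limma, SE 0.11), a 1.27-fold difference that turned to -0.18 under older spike-in scaling (adjusted p = 0.55). Its call ended without WT 1 (adjusted p = 0.051), WT 2 (0.087), WT 3 (0.099), KI 2 (0.11) or KI 3 (0.13), without the filter (0.095), under spike-in scaling (0.43) and with the number in the sample description as a covariate (0.34). That description number was higher for KI 2 and KI 3 than for any WT array, and for KI 1 it lay within the WT range. The covariate is therefore partly confounded with genotype here and below. The Cdkn2c call also ended with the replicate number as a block (adjusted p = 0.092 by limma). Cdkn2d had intensities of 2088, 1990 and 1850 in WT and 1764, 2537 and 2367 in KI. KI 1 was the lowest of all 6 arrays and the other KI arrays the highest. The log2 difference was 0.15 (SE 0.14, 95% interval -0.18 to 0.49, adjusted p = 0.41 by limma). Without KI 2 it was 0.050 and without KI 3 0.10 (adjusted p = 0.81 and 0.68). Without KI 1 it was 0.31 and passed (adjusted p = 0.041), and without both WT 1 and KI 1 it was 0.35 (adjusted p = 0.0032), with array weights 0.28 (adjusted p = 0.010). It turned negative under both spike-in scalings and with the covariate.

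**Figure D2:**
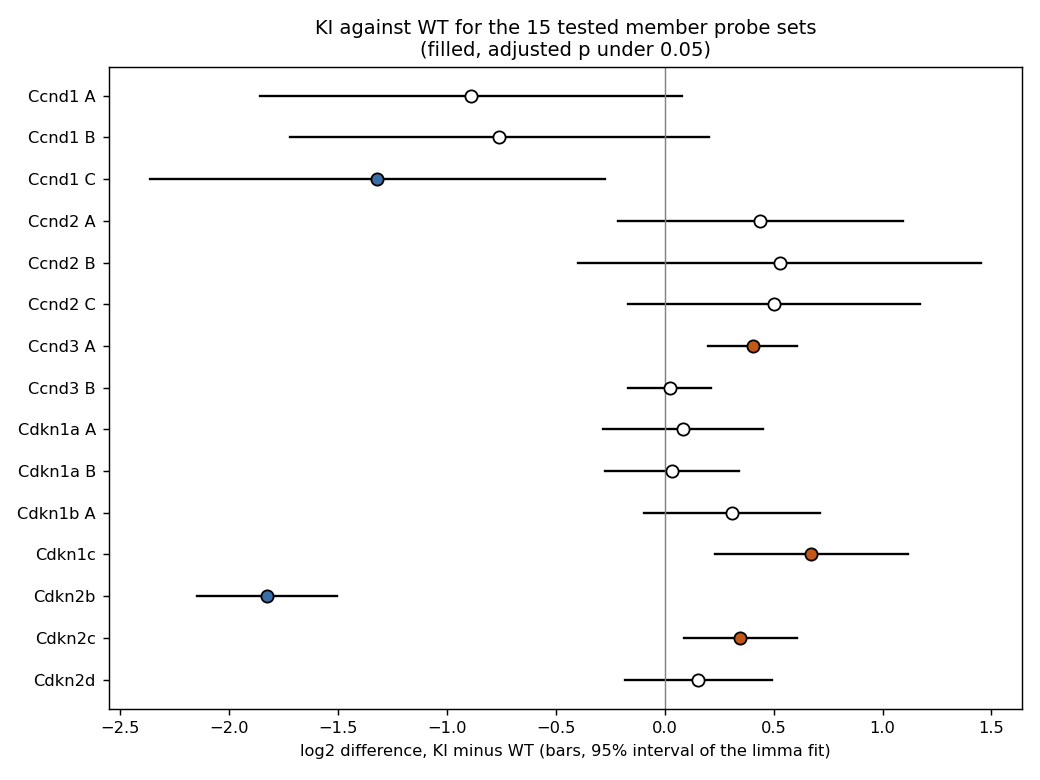
The log2 difference of KI minus WT (x axis) with its 95% interval from the limma fit is plotted for each of the 15 tested member probe sets (y axis), filled where the adjusted p was under 0.05. Cdkn2b stands at -1.83 with a narrow interval, whereas the intervals of the Ccnd1 and Ccnd2 probe sets are wide.

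Ccnd1, the cyclin D most closely tied to growth factor signals, was measured by 3 probe sets, all with a lower mean in KI, of which 1 passed. That probe set (probe set C) had intensities of 1753, 657 and 657 in WT and 246, 529 and 373 in KI. WT 1 was far above the other WT arrays, KI 1 was the lowest, and the groups did not overlap. It fell by 1.32 on the log2 scale (adjusted p = 0.047 by limma, SE 0.44), or 2.50-fold. The brightest probe set (probe set A) had intensities of 3114, 1814 and 1680 in WT and 633, 1822 and 1293 in KI. Here KI 2 lay between WT 1 and WT 2, so that the groups overlapped. Its log2 difference was -0.89 (SE 0.41, 95% interval -1.86 to 0.08, adjusted p = 0.12 by limma). Probe set B had intensities of 2581, 1492 and 1381 in WT and 591, 1703 and 1089 in KI, and a log2 difference of -0.76 (adjusted p = 0.17 by limma, SE 0.41). In all 3 probe sets WT 1 was the highest array and KI 1 the lowest. The call of probe set C ended without WT 1 (-0.85, adjusted p = 0.056), WT 2 (0.054), KI 1 (0.14) or KI 3 (0.11), without the filter (0.14), with quantile normalization (0.053), with eBayes without a trend (0.051) and with the covariate (-1.68, adjusted p = 0.091). This call also ended with the replicate number as a block (adjusted p = 0.12 by limma). Without both WT 1 and KI 1 probe set C was -0.56 and passed (adjusted p = 0.013). By contrast, probe set A passed without KI 2 (-1.23, adjusted p = 0.049) and with array weights (-0.49, adjusted p = 0.046). Probe sets A and B also passed under older spike-in scaling, with -1.42 and -1.29. There the SE of each was 0.27, against 0.41 as reported, and the median over all tested probe sets was itself -0.57. These passes are not read as added support for a fall. Without KI 1 probe set A was -0.46 (adjusted p = 0.27) and probe set B -0.36 (adjusted p = 0.42), and without both WT 1 and KI 1 they were -0.19 (adjusted p = 0.31) and -0.076 (adjusted p = 0.75). Probe set B was -0.48 without WT 1 (adjusted p = 0.37), and the mean over the probe sets of the gene was -0.99 (adjusted p = 0.087).

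Ccnd2 encodes a cyclin D that many proliferating blood cells use, and 3 of its 7 probe sets were tested, none with an adjusted or unadjusted p under 0.05 by limma. The brightest (probe set A) had intensities of 155, 100 and 85.6 in WT and 160, 109 and 190 in KI. WT 1, KI 1 and KI 3 were high and the other arrays low, whatever the genotype. Its log2 difference was 0.44 (SE 0.28, 95% interval -0.21 to 1.09, adjusted p = 0.23 by limma). The other tested probe sets differed by 0.53 (probe set B, adjusted p = 0.31) and 0.50 (probe set C, adjusted p = 0.19), and each of the 3 turned negative under older spike-in scaling. Without WT 1, probe set B passed with 0.92 (adjusted p = 0.042) and probe set C with 0.77 (adjusted p = 0.036), and without both WT 1 and KI 1, probe set A passed with 0.64 (adjusted p = 0.047) and probe set B with 0.75 (adjusted p = 0.034). Array weights gave a call to all 3. Without WT 3 probe sets A, B and C were 0.26, 0.28 and 0.25 (adjusted p = 0.51, 0.62 and 0.46), and without KI 3 probe set A was 0.27 (adjusted p = 0.52). Without KI 2 probe sets A and B were 0.66 and 0.83 (adjusted p = 0.091 and 0.13), and probe set A was 0.69 without WT 1 (adjusted p = 0.052). The 4 untested probe sets lay between 15.4 and 102.

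The summed intensity of the 5 measured stromal cell and osteoblast markers was 7111, 4524 and 2167 on the WT arrays and 8718, 2282 and 7292 on the KI arrays. It was highest on the same 3 arrays on which Ccnd2 was highest. Their part in the Ccnd2 values was not tested.

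**Figure D3:**
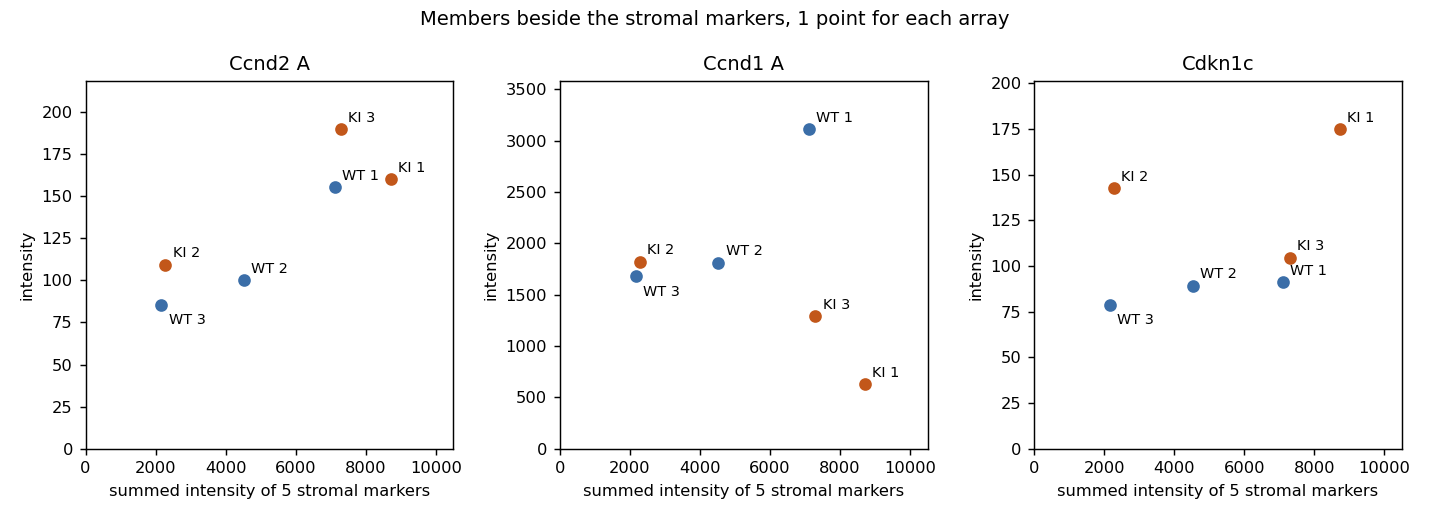
Intensities of Ccnd2, Ccnd1 and Cdkn1c probe sets (y axes) are plotted against the summed intensity of 5 stromal markers (x axis), with 1 point for each WT (blue) or KI (orange) array. WT 1, KI 1 and KI 3 lie to the right in all 3 panels and have the highest Ccnd2 values, from 155 to 190, while in Ccnd1 the same 3 arrays include both the highest value, 3114, and the lowest, 633.

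Ccnd3, the cyclin D that continues to be made in many differentiating cells, was higher in KI. Its brightest probe set (probe set A) had intensities of 814, 912 and 910 in WT and 1108, 1140 and 1237 in KI. All KI arrays lay above all WT arrays, and the arrays of a group lay close together. It rose by 0.40 on the log2 scale (adjusted p = 0.010 by limma, SE 0.09), or 1.32-fold, and the call held when any of the 6 arrays was left out. The rise was 0.20 under spike-in scaling (adjusted p = 0.13) and turned to -0.13 under older spike-in scaling, and it was 0.32 with the description number as a covariate (adjusted p = 0.092) and 0.28 as a mean over the probe sets of the gene (adjusted p = 0.050). The dimmer probe set B lay between 93.6 and 105 on all arrays, with a log2 difference of 0.02 (adjusted p = 0.85, SE 0.08), and probe set C, with 43.6 to 98.5, was not tested.

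Taken as differences within each array, the log2 values of the brightest Ccnd1 and Ccnd3 probe sets moved apart by -1.29 between the groups, and those of Ccnd1 and Ccnd2 by -1.33. In both pairs every KI array lay below every WT array (exact two-sided permutation p = 0.10 each, the smallest that 3 against 3 arrays allow, and 0.20 adjusted over the 6 pairs of D cyclins and Cip/Kip genes). Ccnd2 and Ccnd3 differed in their change by 0.04 (exact permutation p = 0.90), with WT values of -2.99 ± 0.54 (SD, n = 3) and KI values of -2.96 ± 0.37 (SD, n = 3). The difference between Ccnd1 and Ccnd2 was -0.85 without KI 1 and -1.89 without KI 2, and that between Ccnd2 and Ccnd3 ran from -0.17 to 0.34 with 1 array left out. A difference within an array does not depend on a scaling by 1 factor for each array.

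Of the 3 Cip/Kip inhibitors, Cdkn1c was higher in KI, and Cdkn1a and Cdkn1b did not pass. Cdkn1a, which encodes p21, the inhibitor induced by p53, had intensities on its brightest probe set (probe set A) of 1985, 2372 and 2842 in WT and 2878, 2177 and 2541 in KI. The groups overlapped fully, with a log2 difference of 0.08 (SE 0.16, 95% interval -0.29 to 0.45, adjusted p = 0.69 by limma). Probe set B lay between 1947 and 2545 with a difference of 0.03 (adjusted p = 0.85, SE 0.13), and both turned negative under either spike-in scaling and without WT 1. Cdkn1b encodes p27, the inhibitor that accumulates in resting cells. Its brighter probe set (probe set A) had intensities of 1669, 2318 and 2414 in WT and 3075, 2282 and 2529 in KI. WT 1 was the lowest and KI 1 the highest, and the groups overlapped between them. The log2 difference was 0.31 (SE 0.17, 95% interval -0.10 to 0.71, adjusted p = 0.18 by limma), and -0.22 under older spike-in scaling. It was 0.14 without WT 1, 0.19 without KI 1 and 0.022 without both (adjusted p = 0.41, 0.43 and 0.82). The dim Cdkn1b probe set (probe set B) lay between 23.6 and 36.5 and was not tested.

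Cdkn1c, which encodes p57 and is expressed from the maternal allele, was measured at low intensity. Its probe set had intensities of 91.5, 89.3 and 79.0 in WT and 175, 143 and 105 in KI. All KI values exceeded all WT values, but they were more spread. Cdkn1c rose by 0.67 on the log2 scale (adjusted p = 0.025 by limma, SE 0.19), or 1.59-fold. The call ended without WT 2 (adjusted p = 0.059), WT 3 (0.072), KI 1 (0.055) or KI 2 (0.065), without the filter (0.081), under spike-in scaling (0.47, adjusted p = 0.066), under older spike-in scaling (0.14, adjusted p = 0.64) and with array weights (0.35, adjusted p = 0.055). With the covariate it was 1.05 (adjusted p = 0.013). The stromal markers given above were high on KI 1 and KI 3 but low on KI 2, where Cdkn1c was 143, and their part was not tested. Within arrays, Cdkn1a and Cdkn1b moved apart by -0.23, with every KI array below every WT array (exact permutation p = 0.10, adjusted 0.20), Cdkn1a and Cdkn1c by -0.59 (exact permutation p = 0.20), and Cdkn1b and Cdkn1c by -0.36 (exact permutation p = 0.20). The last was -0.57 without WT 1, -0.20 without WT 3, -0.24 without KI 2, and -0.22 with log2 of the intensity plus 32.

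**Figure D4:**
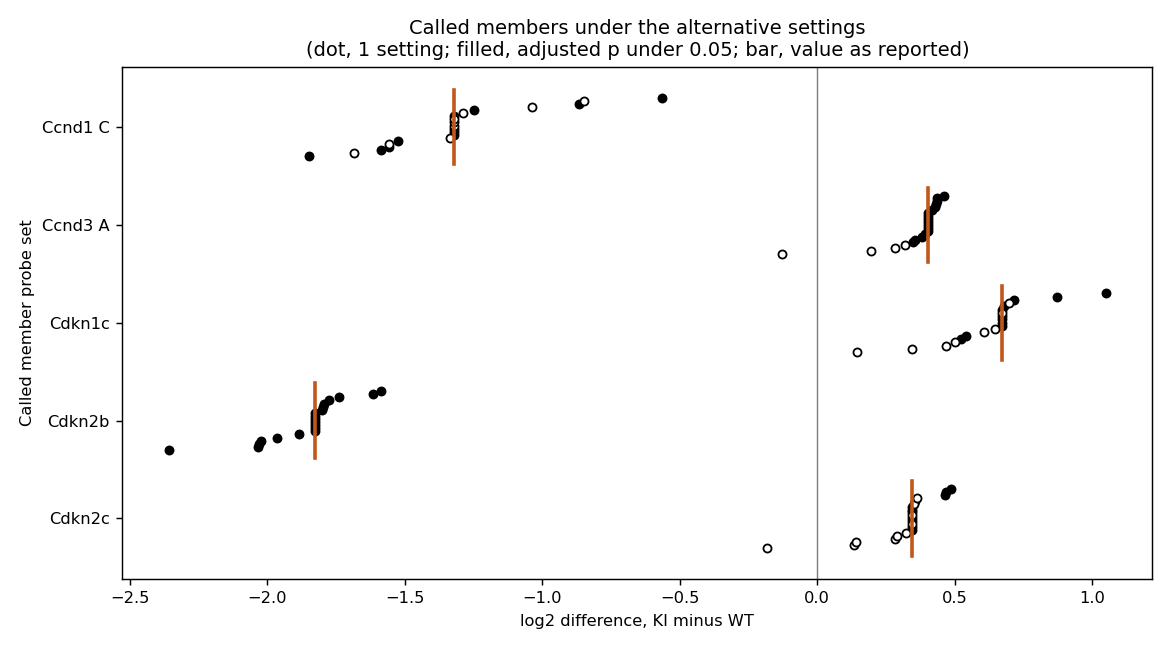
The log2 difference of KI minus WT (x axis) is plotted for the 5 called member probe sets (y axis) under 19 to 21 alternative settings each, 1 dot for a setting, filled where the adjusted p was under 0.05, with an orange bar at the value reported. All dots of Cdkn2b are filled and lie between -2.36 and -1.59, while Ccnd1, Cdkn1c and Cdkn2c have many open dots.

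The other genes of the pathway were read by the brightest probe set of each gene. Over all 10941 genes tested this way 47.9% passed, 20.9% higher and 27% lower in KI, with a median log2 difference of -0.03. Of the 7 lists chosen for this pathway, 95 of 101 genes were tested, of which 19 were higher and 41 lower. The median over these 95 was -0.34.

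The list of kinases that act with or just after cyclin D, and their cyclins, also held an assembly factor and a phosphatase. Of its 10 tested genes 6 fell and 4 did not pass, with a median log2 difference of -0.52. Cdk4, a direct partner of the D cyclins, had intensities of 5650, 4526 and 4245 in WT and 2999, 3331 and 3393 in KI, and it fell by 0.56 (adjusted p = 0.0091 by limma, SE 0.12). Cdk6, the other partner, had 4987, 3743 and 3893 in WT and 2188, 2834 and 2326 in KI, and it fell by 0.78 (adjusted p = 0.0059 by limma, SE 0.14). The groups did not overlap for either kinase. Ccne2 and Ccne1 encode the E cyclins, which activate CDK2 at the start of S phase and are themselves E2F targets. They fell by 1.69 (adjusted p = 0.0076, SE 0.33) and 1.05 (adjusted p = 0.011, SE 0.23). Cdk2 itself had a log2 difference of -0.11 (adjusted p = 0.40, SE 0.10).

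In the Rb and E2F family 2 of 13 genes tested rose, 4 fell and 7 did not pass, with a median of -0.35. Rb1, the retinoblastoma protein that the cyclin D kinases inactivate, had intensities of 1454, 1718 and 1931 in WT and 3069, 2976 and 2745 in KI. All KI values lay above all WT values, and the gene rose by 0.79 (adjusted p = 0.0027 by limma, SE 0.11), although its call ended under older spike-in scaling (0.26, adjusted p = 0.39). Tfdp1, the dimer partner of E2F proteins, fell by 0.81 (adjusted p = 0.0074, SE 0.16), E2f5 fell by 0.35 (adjusted p = 0.020, SE 0.09) and E2f2 rose by 0.54 (adjusted p = 0.027, SE 0.15). In this family 1 gene fell without KI 1 or WT 3 and 2 fell without WT 1 or KI 3, while 1 rose without WT 2, KI 2 or KI 3.

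E2F-driven genes of S phase had the lowest median of the 7 lists, -1.02, and 12 of 14 genes tested fell while 2 did not pass. The count was 8 without WT 1, WT 2 or KI 3, 7 with the replicate number as a block, and 6 without the filter. Rrm2, a subunit of the enzyme that makes deoxynucleotides, fell by 1.58 (adjusted p = 0.0062 by limma, SE 0.29). Cdc6 and Cdt1, which load the replicative helicase, fell by 1.42 (adjusted p = 0.0030, SE 0.21) and 1.14 (adjusted p = 0.0035, SE 0.18), and the helicase subunit Mcm7 fell by 0.99 (adjusted p = 0.0080, SE 0.20). Without WT 1 and KI 1 the median of the list was -0.65. Of 9 mitotic cyclins and proliferation markers tested 5 fell and 4 did not pass. Among those that fell were Bub1 (-0.91, adjusted p = 0.019), Aurka (-0.87, adjusted p = 0.028), Cdc20 (-0.67, adjusted p = 0.028) and Cdk1 (-0.73, adjusted p = 0.039). The mitotic cyclin Ccnb2 (-0.085, adjusted p = 0.66 by limma) and the proliferation marker Mki67 (-0.27, adjusted p = 0.29) did not pass, and their groups overlapped. Of these 9 genes, 1 passed without WT 1, WT 2 or KI 3 and 3 passed without WT 3 or KI 1. Without the filter 0 passed by limma, with 5 at an unadjusted p under 0.05. With the replicate number as a block 0 passed as well, with 3 at an unadjusted p under 0.05.

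In the list of ubiquitin ligase and other turnover genes of the members' proteins, 2 of 14 were higher (Usp2 and the kinase gene Gsk3b), 5 were lower and 7 did not pass, with a median of -0.21. Dtl, which directs p21 and also replication proteins to degradation, fell by 1.65 (adjusted p = 0.0067 by limma, SE 0.31). Fbxo31, which targets cyclin D1, fell by 0.45 (adjusted p = 0.015, SE 0.11), and Cul1, the scaffold of the SCF ligases, fell by 0.34 (adjusted p = 0.017, SE 0.08). Usp2, a deubiquitinase that stabilises cyclin D1, rose by 0.78 (adjusted p = 0.0040, SE 0.13), a call that ended under older spike-in scaling (0.25, adjusted p = 0.42). In this list 1 gene fell without KI 3 and 3 fell without KI 1, while 1 rose without WT 2, KI 1 or KI 3.

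**Figure D5:**
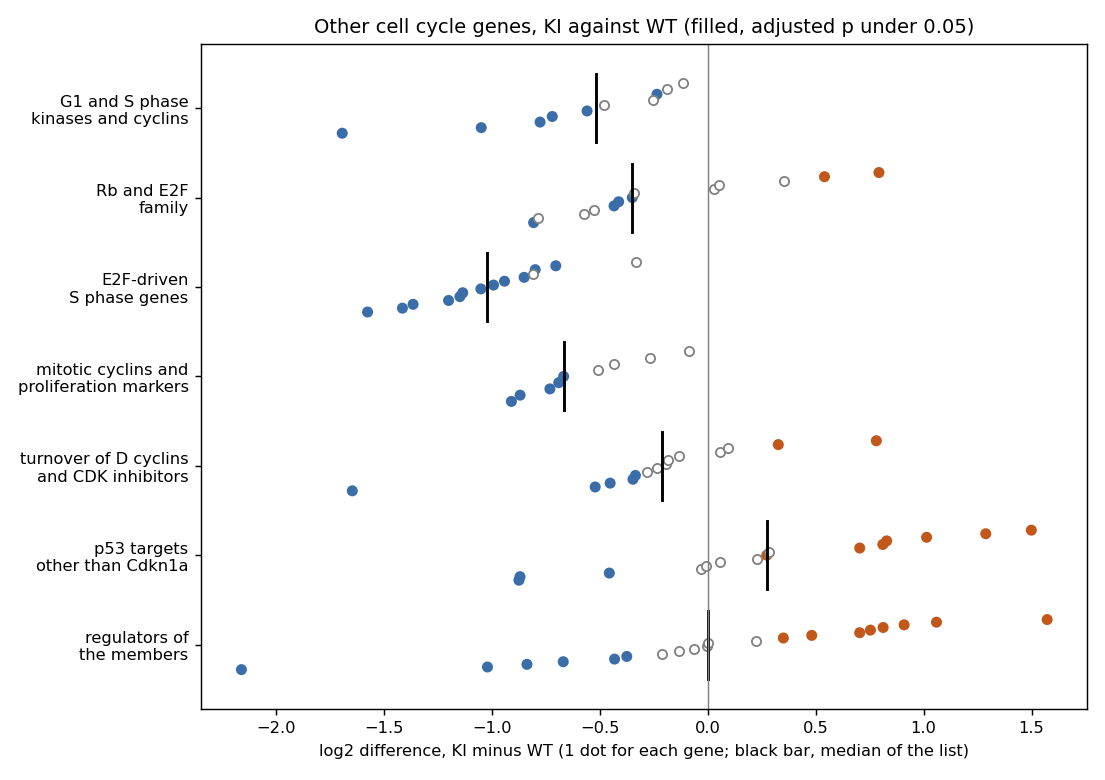
The log2 difference of KI minus WT (x axis) is plotted for each tested gene of the 7 pathway lists (y axis), filled in orange (higher in KI) or blue (lower) where the adjusted p was under 0.05, with the median of each list as a black bar. The bar of the E2F-driven S phase genes lies at -1.02, that of the p53 targets at 0.27, and Myc is the leftmost point among the regulators at -2.16.

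In the list of p53 target genes other than Cdkn1a, 7 of 15 tested were higher in KI, 3 were lower and 5 did not pass, with a median of 0.27, which was 0.11 without WT 1 and 0.075 without both WT 1 and KI 1. Sesn1, a stress-induced inhibitor of mTORC1 signalling, rose by 1.50 (adjusted p = 0.0041 by limma, SE 0.24), the kinase gene Plk2 rose by 0.83 (adjusted p = 0.0018, SE 0.10) and Zmat3 by 0.81 (adjusted p = 0.0065, SE 0.15). Mdm2, the ligase that degrades p53, fell by 0.46 (adjusted p = 0.0038, SE 0.07). The median was 0.067 under spike-in scaling. Under older spike-in scaling it turned to -0.26 with 2 genes higher and 3 lower, and the calls of Plk2 and Zmat3 ended (adjusted p = 0.34 and 0.37). In this list 4 genes rose without KI 1 or KI 3.

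Regulators known to act on the members' promoters changed in both directions, with 8 of 20 higher, 6 lower and 6 not passing, and a median of -0.00083. Myc, a transcription factor that represses Cdkn2b and Cdkn1a through its partner Zbtb17, had intensities of 4210, 3510 and 3282 in WT and 693, 967 and 808 in KI. Each KI array lay far below each WT array, and Myc fell by 2.16 (adjusted p = 0.00029 by limma, SE 0.15), or 4.47-fold. Cbx7 and Bmi1, Polycomb proteins known to silence the locus of Cdkn2a and Cdkn2b, fell by 1.02 (adjusted p = 0.0017, SE 0.13) and 0.67 (adjusted p = 0.0015, SE 0.08). Tcf7l2, a transcription factor of the Wnt pathway, which drives Ccnd1 in other cells, rose by 1.06 (adjusted p = 0.00056, SE 0.09), and its call ended under older spike-in scaling (0.53, adjusted p = 0.084). Spike-in scaling gave 6 higher and 9 lower, and older spike-in scaling 1 and 8.

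By Pearson's r of log2 values over the 6 arrays, the genes most like Cdkn2b were Enc1 (r = 0.999), Dapp1 (r = 0.998) and Marveld1 (r = 0.998). Their log2 differences were -0.73, -0.56 and -0.89, and that they were lower in KI follows from how they were picked. Those most like Cdkn1c were Mms19 (r = 0.998), Brwd1 (r = 0.997) and Mef2a (r = 0.984). They differed by 0.15, 0.15 and 0.81 on the log2 scale (adjusted p = 0.16, 0.16 and 0.017 by limma). For the Ccnd1 probe set that passed, chosen after its values were seen, they were Lrrc59 (r = 0.999), Tars2 (r = 0.999) and Dnmt1 (r = 0.999). Over these 6 arrays such values were common for Cdkn2b and Ccnd1 and less so for Cdkn1c. Of 10940 genes searched, 700 had r above 0.95 with Cdkn2b, 1183 with Ccnd1 and 46 with Cdkn1c. The genes share the arrays, and the likeness is a description only.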

How the data were processed

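RNA was labelled with biotin from the 3′ end and hybridised to Affymetrix mouse arrays, as the labels' protocols state. The authors deposited 1 linear intensity for each of 45101 probe sets on each of 6 arrays. Affymetrix Expression Console made them, per the submitters' processing notes. How they were summarised and normalized is not given in the sources used here. As array medians lay close together, the values were taken as normalized. Genes were named where the platform annotation gave 1 symbol (34945 probe sets), of which 34741 matched RefSeq by gene identifier. Probe sets of a gene were kept apart.

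Leaving out 64 control probe sets, values were floored at 16 (5.47% lay below) before taking log2. The 22518 probe sets with a mean above the median of all were tested with limma 3.58.1 in R 4.3.3 (lmFit, eBayes with an intensity trend), with Benjamini-Hochberg adjustment over all of them. The number of arrays limits precision. Differences within arrays were compared by exact permutation.

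The members and lists were chosen with earlier results of these data known. All members were named, with the 4 tested genes of each pathway list that had the smallest p. The 3 genes most like the members with the largest called rise and fall were named too. Cdk2, Ccnb2, Mki67 and the markers Elane, Mpo and Prtn3 were named after their values were seen. Outside this rule Gsk3b was named as the other gene higher in its list. Alternatives were other scalings (quantile, common median, both spike-in sets), filters, an offset of 32, eBayes without a trend or robust, array weights, a replicate block, a covariate of the number given in each sample's description, omission of arrays or of probe sets that can match several transcripts, and 1 mean for each gene.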

Additional observations from a re-analysis of the deposited data

How the results depend on the processing

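Of the results named for the members, the call of Cdkn2b held under the 20 alternatives that tested it, and that of Ccnd3 under 17 of 21. The top 30% filter did not test Cdkn2b. Probe sets of members that were higher and lower in KI numbered 3 and 2 as reported. The counts were 3 and 1 with quantile normalization, 0 and 2 with scaling to the spike-ins, 0 and 4 with the older spike-ins, 1 and 1 without the filter (22 tested), 2 and 1 with the top 30% of probe sets (9 tested), 3 and 1 with eBayes without a trend, 6 and 3 with array weights, 1 and 1 with the description number as a covariate, and 6 and 2 without WT 1 and KI 1. Where 0 were higher by limma, 1 had an unadjusted p under 0.05 with scaling to the spike-ins and 0 had one with the older spike-ins. With 1 array left out, 1 to 4 were higher and 1 to 3 lower. Over all tested probe sets, spike-in scaling gave 2546 higher and 9011 lower, older spike-in scaling 728 and 10586, and the covariate 2844 and 3637. The pathway lists had 19 genes higher and 41 lower as reported, 3 and 62 under older spike-in scaling, 23 lower without the filter, 11 higher with the covariate, and 24 to 39 lower with 1 array left out.

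The deviations of same-numbered arrays from their group means correlated at -0.40, -0.29 and -0.30 across probe sets. Those of WT and KI arrays with different numbers correlated from -0.28 to 0.40. The same-numbered values lay below all the others and gave no sign of a shared effect of the number. Deviations within a group of 3 sum to 0, so these values are tied to each other. They do not settle whether same-numbered arrays were paired. With the replicate block 2693 probe sets were higher and 3491 lower, 2 member probe sets were higher and 1 lower, and 11 genes of the pathway lists were higher and 19 lower.

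Among the named pathway genes the call ended under 9 of 20 alternatives for E2f2, 7 of 20 for Cdk1, 5 of 20 for Aurka, 4 of 19 for Cdc20, 4 of 20 each for Cul1 and E2f5, 3 of 20 for Bub1, 2 of 20 for Fbxo31 and 1 of 19 for Ccne1.

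Several small differences turned sign. Spike-in scaling gave -0.18 for Ccnd3 probe set B, -0.12 and -0.17 for Cdkn1a probe sets A and B, and -0.052 for Cdkn2d. Older spike-in scaling gave -0.091, -0.0032 and -0.027 for Ccnd2 probe sets A, B and C, -0.13 and -0.51 for Ccnd3 probe sets A and B, -0.45 and -0.50 for the Cdkn1a probe sets, -0.22 for Cdkn1b, -0.18 for Cdkn2c and -0.38 for Cdkn2d. Array weights gave -0.043 for Ccnd3 probe set B and -0.0067 for Cdkn1a probe set B, the covariate gave -0.11 for Cdkn2d, and leaving out WT 1 and KI 1 gave -0.029 for Ccnd3 probe set B and -0.14 and -0.13 for the Cdkn1a probe sets. With 1 array left out the values ran from -0.024 to 0.057 for Ccnd3 probe set B, from -0.046 to 0.21 for Cdkn1a probe set A and from -0.070 to 0.14 for Cdkn1a probe set B. The difference in change between Ccnd2 and Ccnd3 was -0.041 with log2 of the intensity plus 32 and -0.17 to 0.34 with 1 array left out. The causes were not tested, and precision is limited by 3 arrays in each group.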
